A study of Mus musculus with 4 samples.

Results

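A set of 10 germline genes was followed in mouse embryonic stem cells with and without the chromatin remodeler Chd1: Tex19.1, Dazl, Mael, Ddx4, Stk31, Taf7l, Piwil2, Sycp3, Asz1 and Tex101. They were chosen by symbol, as genes known to be silenced by promoter DNA methylation, and each locus whose symbol equals one of these names was taken from the deposited tables. Of the 10 genes, 9 were listed, each once in set 1 and once in set 2, among 13581 symbols in the 2 tables. Asz1, a mitochondrial scaffold of the piRNA pathway, was listed in neither table and was not analysed here. DNA methylation itself was not measured, so the values cannot test the silencing that the grouping is named for.

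All 4 libraries came from cells with a Rosa26CreER transgene, which makes a tamoxifen-activated Cre from the broadly expressed Rosa26 locus, and with 1 floxed and 1 null Chd1 allele (Rosa26CreER;Chd1fl/-). Control cells received ethanol and Chd1-null cells (Chd1-/-) 1 µM tamoxifen for 48 to 72 h, and both then grew in serum with LIF for 3 to 5 passages. The controls therefore carried a single functional Chd1 allele and were not wild type at that gene. No library came from tamoxifen-treated cells that kept Chd1. Effects of tamoxifen or of active Cre thus cannot be told apart from those of Chd1 loss. Total RNA was taken from equal cell numbers, and each of set 1 and set 2 held 1 control and 1 Chd1-null library (n = 2 per group). Per the labels' protocols there were 2 independently derived lines, but no label ties a set to a line.

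In mammals, many germ cell genes have CpG-rich promoters that are methylated after implantation and stay silent in somatic tissues. In embryonic stem cells, methylation by the Dnmt enzymes acts beside a Polycomb complex, PRC1.6, whose subunits Mga and Max recognise the E-box and whose subunit E2f6 recognises E2F sites. The products serve germ cell RNA binding (Dazl, Ddx4), the piRNA pathway that silences transposons (Piwil2, Mael, Asz1, with Ddx4), control of retrotransposons (Tex19.1) and meiosis (Sycp3). Taf7l is a germ cell relative of the general transcription factor subunit Taf7, Stk31 a Tudor domain protein of germ cells, and Tex101 a surface protein of germ cells.

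The promoter sequences were compared for motifs that PRC1.6 subunits recognise and for CpG content, and no motif was present in every gene. A window from 250 bases before to 50 bases after the transcription start was found in RefSeq (GRCm38.p6) for 9 of the 10 genes, Piwil2 being the exception, and it was searched on both strands for the E-box CACGTG and for the E2F core GCGGGA, which reads TCCCGC on the other strand. The motifs do not overlap each other in the windows printed. Those of Tex19.1, Mael, Ddx4 and Sycp3, the genes with the E2F core, are printed, and capitals mark the motifs. The windows of Dazl, Asz1 and Tex101, which are not printed, held neither motif.
Tex19.1, GRCm38.p6, chr11:121145893-121146192, plus strand: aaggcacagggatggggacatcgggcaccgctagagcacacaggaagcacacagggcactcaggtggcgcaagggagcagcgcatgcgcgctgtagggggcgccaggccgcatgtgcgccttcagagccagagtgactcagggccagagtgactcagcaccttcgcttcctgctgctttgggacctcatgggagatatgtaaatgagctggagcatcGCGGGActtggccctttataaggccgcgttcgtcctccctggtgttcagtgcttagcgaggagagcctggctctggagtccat
Mael, GRCm38.p6, chr1:166238695-166238994, minus strand: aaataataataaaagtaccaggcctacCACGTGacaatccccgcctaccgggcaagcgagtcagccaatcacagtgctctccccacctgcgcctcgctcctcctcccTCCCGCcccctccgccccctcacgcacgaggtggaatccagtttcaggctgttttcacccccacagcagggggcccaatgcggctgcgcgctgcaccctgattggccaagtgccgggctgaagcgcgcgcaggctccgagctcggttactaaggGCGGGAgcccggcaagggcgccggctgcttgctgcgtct
Ddx4, GRCm38.p6, chr13:112652261-112652560, minus strand: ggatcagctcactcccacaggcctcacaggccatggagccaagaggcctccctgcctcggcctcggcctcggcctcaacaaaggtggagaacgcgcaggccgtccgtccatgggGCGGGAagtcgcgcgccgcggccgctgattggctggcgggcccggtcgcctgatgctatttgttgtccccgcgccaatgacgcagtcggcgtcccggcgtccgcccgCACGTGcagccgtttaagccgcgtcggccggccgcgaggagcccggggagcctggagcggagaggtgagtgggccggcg
Sycp3, GRCm38.p6, chr10:88459337-88459636, plus strand: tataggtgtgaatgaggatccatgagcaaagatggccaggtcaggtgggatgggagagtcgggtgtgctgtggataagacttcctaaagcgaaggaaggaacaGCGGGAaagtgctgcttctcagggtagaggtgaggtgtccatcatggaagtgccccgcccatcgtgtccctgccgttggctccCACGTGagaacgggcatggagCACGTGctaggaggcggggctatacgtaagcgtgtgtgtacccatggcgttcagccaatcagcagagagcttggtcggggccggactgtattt

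The E-box was present in 5 of 9 genes (Mael, Ddx4, Stk31, Taf7l and Sycp3), against 7.15% of the 32851 promoter windows in the table. Sycp3 had 2 copies of it. The E2F core was present in 4 genes (Tex19.1, Mael, Ddx4 and Sycp3), against 20% of windows, and both motifs were present in 3 genes, against 1.99%. Each motif contains a CpG, and the shares were not matched to the CpG content of the 9 genes. They also count windows rather than genes, so an excess of motifs was not tested. The windows of the 9 genes held 15 (Sycp3) to 38 (Ddx4) CpG dinucleotides, where the median window held 7 (quartiles 3 and 20). All of the 10 windows, Stk31 having 2 that overlap, were above that median. A match is a run of letters and does not show that a protein binds there. The coordinates belong to GRCm38.p6, whereas the expression values were made on mm9.

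The unit of the values was taken as FPKM, as inferred from the processing notes because the headers do not write it. FPKM divides by transcript length and library size, but these values were treated as normalized to cell number and compared as deposited. How the ERCC spike-in RNAs entered the scaling is not given in the sources used here. Chd1 itself checked the labels, with 27.6 FPKM in the control against 5.71 in the Chd1-null library of set 1, and 17.9 against 8.52 in set 2. All 10 pluripotency markers examined were listed in both sets, led by Pou5f1 at 403 to 599 FPKM, so the cells carried the markers of their label. Values summed to 466994 to 719549 FPKM per library, and read depth is unknown. Of 10261 genes tested, those named in both sets with a mean of at least 1 FPKM, the median log2 ratio of Chd1-null over control was -0.46 in set 1 and -0.33 in set 2. Division of each library by its own total moved these medians to -0.14 and 0.14.

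The germline genes spanned a wide range of levels in control cells. Tex19.1 was the highest at 30.9 ± 0.41 FPKM (mean ± SD, n = 2), above 83.8% of loci in set 2 and 84.4% in set 1. Next came Ddx4 at 7.97 ± 0.83, Mael at 7.38 ± 3.89, Piwil2 at 5.12 ± 0.09, Sycp3 at 4.33 ± 2.07 and Stk31 at 3.28 ± 0.19 FPKM. Among these 5 genes each neighbouring pair had control values that overlapped, whereas both controls of Ddx4 lay above both of Piwil2, and those of Piwil2 above both of Stk31. Dazl stood lower at 1.97 ± 0.63 FPKM, Taf7l at 0.689 ± 0.073 and Tex101 at 0.406 ± 0.023, and here neighbours did not overlap. Each set has its own table, and a separate scaling of the tables by the authors cannot be told apart from a difference in level between sets. Tex19.1 alone made up 53.2% of the FPKM sum of the 9 genes in control 1 and 46.9% in control 2.

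**Figure D1:**
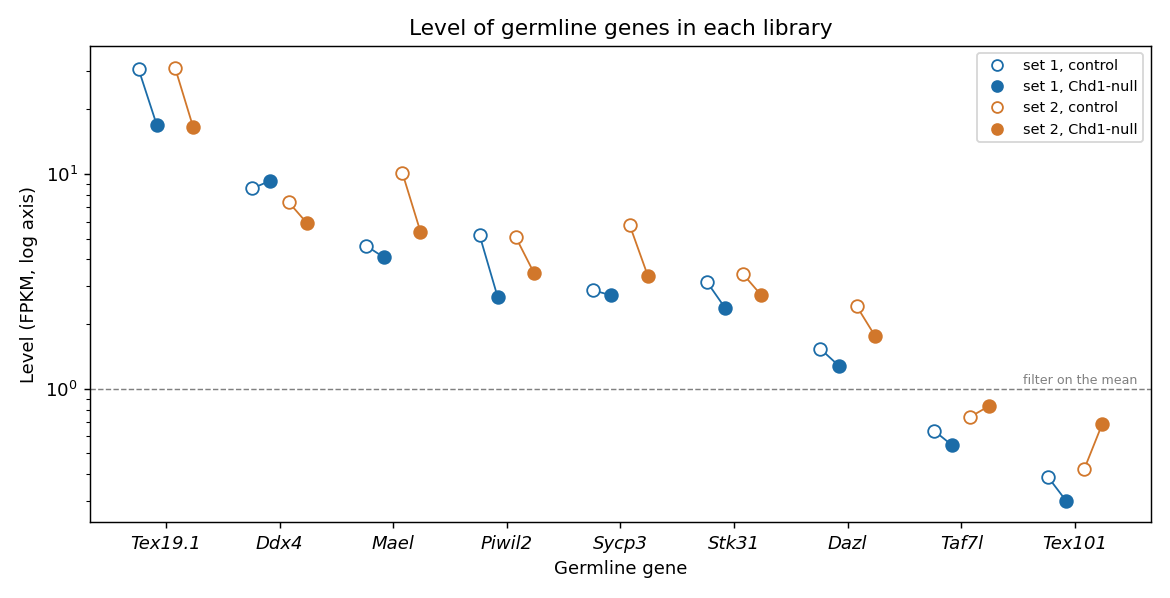
Level of each of the 9 listed germline genes in FPKM (vertical log axis) in the 4 libraries; open points are controls, filled points Chd1-null, blue set 1, orange set 2, and a line joins the libraries of a set. Tex19.1 drops from about 31 to below 17 FPKM in both sets, whereas Ddx4, Taf7l and Tex101 move in opposite directions in the sets; the dashed line is the 1 FPKM limit that applies to the mean of the 4 libraries.

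The comparison set the FPKM of these transcripts in Chd1-null cells against that in control cells. Tex19.1 was the single gene of the 7 tested that passed, and it fell. Over all tested genes 9.8% were called lower and 0.0682% higher, so 1 lower and 0 higher of 7 is close to the background. In bulk RNA, fewer cells that express a gene and less RNA in each cell cannot be told apart. Taf7l and Tex101 had means under 1 FPKM and did not enter the test.

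Tex19.1, which restrains retrotransposons in germ cells and placenta, measured 30.6 FPKM in the control against 16.9 in the Chd1-null library of set 1, and 31.2 against 16.5 in set 2. Both Chd1-null values lay below both controls, with 55.0% of control left in set 1 and 52.8% in set 2. The log2 ratios were -0.86 and -0.92 (SD 0.042), so this gene differed less between sets than any other of the 9. On the log2(FPKM + 0.1) scale it fell by 0.89 (limma SE 0.21, adjusted p = 0.0018, lower in 2 of 2 sets). The SE comes from a variance that limma shares among genes of similar level, since 2 pairs leave 1 residual degree of freedom. The call was lost with 1 variance prior for all levels (adjusted p = 0.288), without set as a block (0.461) and with libraries divided by their totals (0.454), in each case by limma.

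Relative to the median of each set, Tex19.1 had a log2 change of -0.49 ± 0.23 (SE, limma adjusted p = 0.718, unadjusted p = 0.0327) and did not pass. Of all tested genes 0.214% were lower and 0.146% higher in that comparison, and 0 of the 7 germline genes were called in limma. At an unadjusted p under 0.05 it was Tex19.1 alone, where 3.53% of all tested genes were lower and 2.76% higher.

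Among the tested genes whose profiles over the 4 libraries lay nearest to that of Tex19.1, by Euclidean distance of log2 values with each gene's mean removed, were Rilpl1 (0.037) and Neurl1a (0.054). Likeness was read over 4 libraries and 9858 genes. Tex19.2, the neighbouring paralog of Tex19.1, was low, at 0.595 and 0.772 FPKM in set 1 and 0.234 and 0.313 in set 2, each pair given as control and Chd1-null. Its values were thus higher in the Chd1-null library of both sets, opposite to Tex19.1, but it lies under the limit for testing.

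Among the piRNA pathway genes, Piwil2, the Argonaute protein that binds piRNAs, measured 5.18 FPKM in the control against 2.66 in the Chd1-null library of set 1, and 5.06 against 3.45 in set 2. The groups did not overlap, and 51.4% and 68.2% of control were left, yet the log2 change of -0.74 ± 0.39 (SE) missed the threshold (limma adjusted p = 0.184). Groups without overlap, with both Chd1-null values lower, were seen for 52.6% of all tested genes, and for 3 of the 7 germline genes (Tex19.1, Piwil2 and Stk31). That count sets values of one table against those of the other, and whether the tables were scaled separately is not known.

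Mael, which acts in the nuage of germ cells, measured 4.63 FPKM in the control against 4.08 in the Chd1-null library of set 1, but 10.1 against 5.38 in set 2. The control of set 2 stood apart from the other 3 libraries, and that of set 1 lay below Chd1-null 2. The ratios to control were 0.881 and 0.531, and the log2 change of -0.54 ± 0.33 (SE) did not pass (limma adjusted p = 0.252).

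Ddx4, the germ cell RNA helicase also called Vasa, measured 8.56 FPKM in the control against 9.29 in the Chd1-null library of set 1, and 7.39 against 5.91 in set 2. It was the single gene of the 9 with a higher Chd1-null value in set 1. Its ratios of 1.09 and 0.80 gave a log2 change of -0.10 ± 0.29 (SE, limma adjusted p = 0.812).

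Of the RNA binding and meiosis genes, Sycp3, a protein of the synaptonemal complex axis, followed the pattern of Mael. It measured 2.87 FPKM in the control against 2.72 in the Chd1-null library of set 1, and 5.80 against 3.36 in set 2. The 2 controls differed 2.02-fold, as those of Mael did 2.19-fold, whereas the Chd1-null libraries differed 1.24-fold and 1.32-fold. The log2 ratios of Sycp3 were -0.07 and -0.77, and the change of -0.42 ± 0.41 (SE) did not pass (limma adjusted p = 0.459). By RefSeq positions the gene overlaps Chpt1, and whether the counting used strand is not given in the sources used here.

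Dazl, a translation regulator of germ cells, measured 1.53 FPKM in the control against 1.28 in the Chd1-null library of set 1, and 2.41 against 1.76 in set 2. Both sets were lower, but Chd1-null 2 lay above control 1, and the log2 change was -0.34 ± 0.57 (SE, limma adjusted p = 0.673). Stk31 was the steadiest of the genes that did not pass, at 3.15 against 2.38 FPKM in set 1 and 3.41 against 2.72 in set 2. Its groups did not overlap, its log2 ratios were -0.39 and -0.32 (SD 0.052), and the change of -0.35 ± 0.45 (SE) did not pass (limma adjusted p = 0.569). The spread of Stk31 between sets was far below this SE, which reflects other genes of its level.

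The 2 lowest genes had opposite signs in the sets. Taf7l measured 0.637 FPKM in the control against 0.545 in the Chd1-null library of set 1, and 0.741 against 0.829 in set 2. Tex101 measured 0.390 and 0.302 FPKM in set 1 and 0.421 and 0.687 in set 2, in the same order. The ratios were 0.855 and 1.12 for Taf7l and 0.774 and 1.63 for Tex101. Without a filter on level, where 7.9% of 11728 genes were called lower and 0.0512% higher, neither passed (limma adjusted p = 0.983 and 0.899).

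As a list, 8 of the 9 genes had a lower Chd1-null value in set 1, 7 in set 2 and 6 in both. The 3 that went opposite ways were Ddx4 and the untested Taf7l and Tex101. Of the 7 tested genes, all but Ddx4 were lower in set 1, all in set 2 and 6 in both. Over all tested genes 87.3% were lower in set 1, 82.4% in set 2 and 72.4% in both. The median log2 change of the 7 tested genes was -0.42, beside -0.41 for all tested genes. With libraries divided by their totals it was -0.032, and Dazl, Ddx4 and Stk31 had changes above 0. By set it was -0.24 in set 1, above the median of all genes, and -0.54 in set 2, below it. The summed level of the 9 genes was 57.6 against 40.1 FPKM in set 1 and 66.6 against 40.6 in set 2.

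Because change depended on level differently in the 2 tables, each gene was also set beside loci of a similar level, grouped by the mean of the set's 2 libraries. The loci included those without a symbol, 3939 of 16553 in set 1 and 3866 of 16967 in set 2. In set 1, the 6173 loci between 1 and 5 FPKM had a median log2 ratio of -0.79 (quartiles -1.34 and -0.27). Dazl (-0.24), Mael (-0.18) and Sycp3 (-0.07) lay above that upper quartile, Stk31 (-0.39) and Piwil2 (-0.93) within the quartiles. Ddx4 (0.12) lay above the upper quartile of -0.17 for 5 to 20 FPKM, and Taf7l (-0.19) above that of -0.37 for 0.5 to 1 FPKM. In all, 7 of 9 genes exceeded the median of their level in set 1, and 5 exceeded its upper quartile. Tex19.1 was the exception below the lower quartile of its level (-0.49 for loci over 20 FPKM).

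In set 2 the picture differed. There 3 of 9 genes (Ddx4, Taf7l and Tex101) exceeded the median of their level, and 1 (Tex101) its upper quartile. Tex19.1, Mael and Sycp3 lay below the lower quartiles of their levels, which were -0.60 over 20 FPKM, -0.63 from 5 to 20 and -0.67 from 1 to 5. Tex19.1 was thus below the lower quartile in both sets, and no other of the 9 genes was. With 1 pair per set, the difference between sets was not tested.

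**Figure D2:**
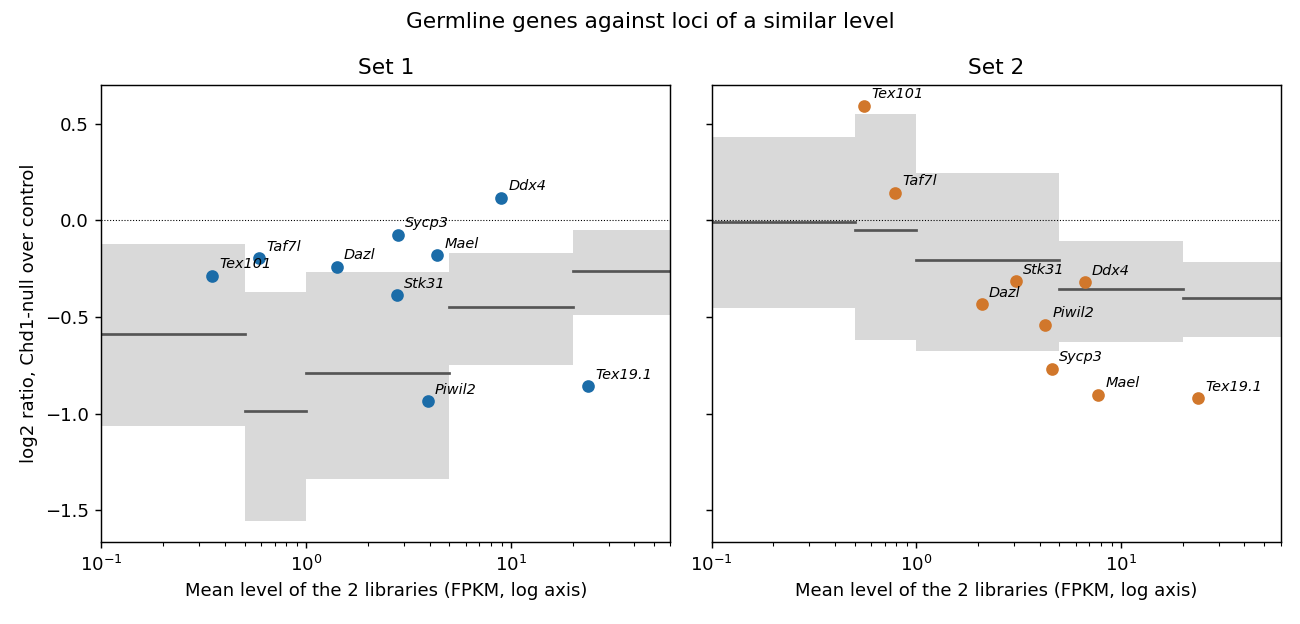
log2 ratio of Chd1-null over control of the 9 germline genes (points) against the mean FPKM of the set's libraries (log axis), for set 1 on the left and set 2 on the right; grey bands span the quartiles and dark lines mark the median of all loci in each level range. Above the band lie 5 points in set 1 and 1 in set 2, and Tex19.1 lies under the band in both.

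Other germline genes were taken as lists for comparison. Over all tested genes 9.8% were called lower and 0.0682% higher. Of 22 genes of piRNA and transposon defence 11 were tested and 0 passed in limma, with a median log2 change of -0.38. At an unadjusted p under 0.05 there were 2 of 11, Tdrd12 and Wdr77, both lower, where 28.9% of all tested genes were lower and 0.263% higher. Wdr77, the partner of the arginine methyltransferase Prmt5, had a change of -0.44 (limma adjusted p = 0.0852), and Prmt5 one of -0.28 (0.263). The Tudor domain protein Tdrd12 had a log2 ratio of -0.04 in set 1 and of -0.82 in set 2. Its within-set ratios, lower mainly in set 2, resemble those of Mael and Sycp3. Its levels do not, since its control stood at 51.3 FPKM in set 1 and at 26.3 in set 2, whereas theirs were higher in set 2. Pld6, a mitochondrial protein of piRNA processing, had a change of -0.59 (adjusted p = 0.518).

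Of 29 meiosis genes 16 were tested, 1 fell (against 9.8% of all tested genes) and 0 rose, with a median of -0.45. The gene that fell was Sgol2, a protector of centromeric cohesion also used in mitosis (by 0.79, limma adjusted p = 0.0242). It was not called with a mean of at least 5 FPKM or with the level trend removed (each set's loess curve of log2 ratio on level), where 0 of 9 and 0 of 16 meiosis genes passed. In the same order, 225 of all 6861 and 529 of all 10261 genes were called lower there. The recombination gene Mei4 (-0.84, adjusted p = 0.313) and Tex11 (-0.76, 0.310) had lower values in both sets without passing. Syce2, of the central element of the synaptonemal complex, was the highest of those tested 16 by its mean, at 31.2 against 32.2 FPKM in set 1 and 44.2 against 28.6 in set 2.

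Of 41 further germline genes 17 were tested, 2 fell (against 9.8% of all tested genes) and 0 rose, with a median of -0.44. Nanos3, an RNA-binding protein that protects primordial germ cells, fell by 1.85 (SE 0.65, limma adjusted p = 0.0484), with 2.31 against 0.432 FPKM in set 1 and 2.87 against 0.937 in set 2. Its call was lost with a pseudocount of 0.01, and its mean lies below the limit of 5 FPKM. Dppa5a, an RNA-binding protein abundant in pluripotent cells, fell by 0.70 (limma adjusted p = 0.0131), from 1431 to 1032 and from 2088 to 1097 FPKM. Rhox9, a homeobox gene of the X chromosome, had the largest positive change of the list without passing (1.18, limma adjusted p = 0.217), from 3.81 to 5.72 and from 0.106 to 0.612 FPKM. Its control of set 2 lay near 0.1 FPKM, the lowest value of the tables, and its log2 ratios were 0.57 in set 1 and 1.79 in set 2. Ldhc, the lactate dehydrogenase of germ cells, had a change of -1.31 (adjusted p = 0.257).

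The regulators that act on germline promoters were expressed at higher levels, where the limma SE is smaller. Of 12 DNA methylation genes 11 were tested, 4 fell (against 9.8% of all tested genes) and 0 rose, with a median of -0.44. Those that fell were the methylcytosine oxidases Tet1 (by 1.01, limma adjusted p = 0.00090) and Tet2 (by 1.17, 0.0046), the remodeler Hells (by 0.53, 0.0271) and Uhrf1, which guides Dnmt1 to new DNA (by 0.48, 0.0490). Tet1 and Tet2 fell mostly in set 1, with log2 ratios of -1.68 and -0.34 for Tet1 and of -1.67 and -0.66 for Tet2. With the level trend removed Hells and Tet2 were called and Tet1 and Uhrf1 were not, and with a pseudocount of 1 Uhrf1 was not. Zbtb24 had a change of -1.18 (limma adjusted p = 0.0556). The de novo methyltransferase Dnmt3b, the highest of the list, stood at 266 and 244 FPKM in set 1 and at 288 and 280 in set 2. Its change of -0.08 ± 0.17 (SE) did not pass (limma adjusted p = 0.732), nor did those of Dnmt1 (-0.37, 0.162), Dnmt3a (-0.31, 0.320) and Dnmt3l (-0.37, 0.127).

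Of 21 genes of PRC1.6 and of H3K9 methylation 20 were tested. Of these 7 fell (against 9.8% of all tested genes) and 0 rose, with a median of -0.50. The 7 were Max, Pcgf6, Rybp, Hdac1, Atf7ip, Ehmt2 and Trim28. Trim28, a corepressor that recruits the H3K9 methyltransferase Setdb1, fell by 0.73 (limma adjusted p = 0.0041) from 1069 to 637 and from 943 to 573 FPKM. Atf7ip, a partner of Setdb1, fell by 0.92 (0.0078) and Rybp by 0.72 (0.0231), both mostly in set 1. Of the proteins that recognise the printed motifs, Max fell by 0.64 (limma adjusted p = 0.0404), while Mga had a change of -0.54 (0.0913) and E2f6 of 0.02 (0.949). With a mean of at least 5 FPKM, 0 of 10 methylation genes and 1 of 19 repressors (Trim28) were called in limma. There 225 of all 6861 genes were lower. With the level trend removed 3 of 20 repressors were called, Pcgf6, Ehmt2 and Trim28, where 529 of all 10261 genes were lower. In the 5 lists of related genes and regulators 0 genes passed relative to the set medians. The same count of 0 was found with libraries divided by their totals, and with 1 variance prior or without the block, where 0 of all 10261 genes passed.

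**Figure D3:**
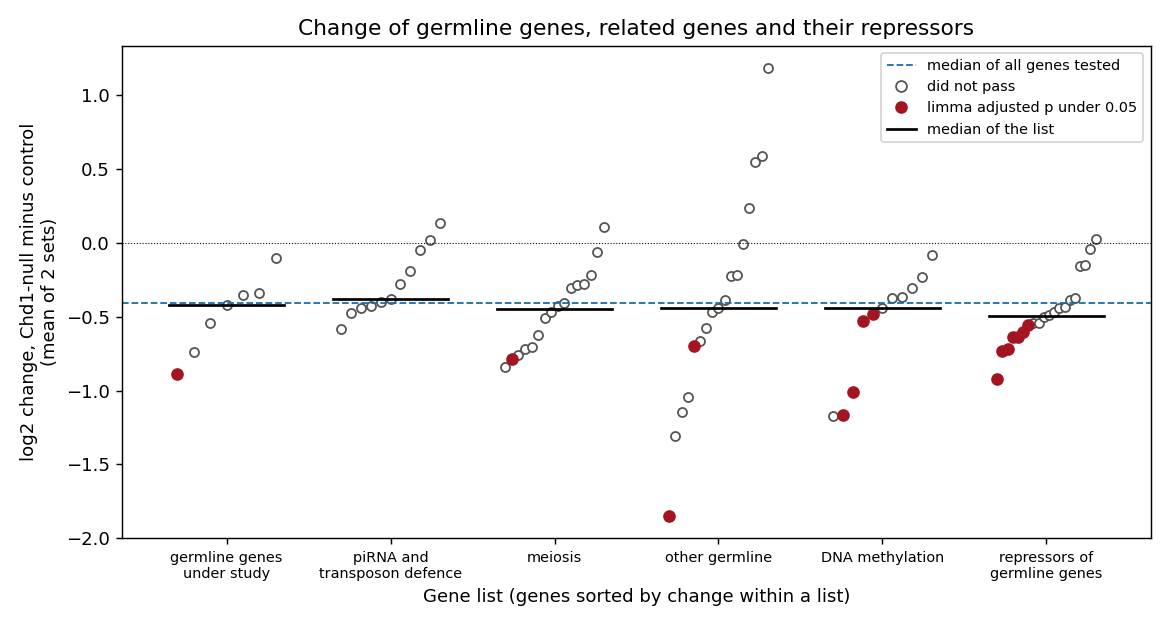
Mean log2 change over the 2 sets of each tested gene (points, sorted within a list) for the germline genes under study, 3 lists of related germline genes and 2 lists of regulators; filled points passed in limma, the bars mark list medians and the dashed line the median of all tested genes. The list medians lie between -0.50 and -0.38, close to the -0.41 of all genes, and the germline genes under study hold 1 filled point, Tex19.1.

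Markers of other cells in which these genes could be read were listed at low levels with some exceptions. Of 10 primordial germ cell markers, a list that includes Dazl and Ddx4, all were listed in both sets and 9 were tested, of which 3 fell (Tfap2c, Nanos3 and Ifitm3) and 0 rose. Over all tested genes 9.8% fell and 0.0682% rose. With a mean of at least 5 FPKM 1 of 5 was called, Tfap2c, where 225 of all 6861 genes were lower. The sum of the 10 germ cell markers was 410 and 338 FPKM in control 1 and Chd1-null 1 and 274 and 189 in set 2. Dppa3 and Ifitm3, which pluripotent cells also express, made up most of it. Of 10 markers of gonadal somatic cells 3 were listed in set 1 and 4 in set 2, with sums of 4.31 and 1.97 FPKM in set 1 and 10.1 and 7.70 in set 2. Of 10 fibroblast markers 6 and 8 were listed, with sums of 61.8 and 62.7 FPKM in set 1 and 144 and 103 in set 2, of which Vim made up most. Of 13 markers of the totipotent-like state 1 was listed in set 1 and 6 in set 2, and of 10 primitive endoderm markers 4 and 7. Only 2 of the primitive endoderm markers were tested, and 1 of them, Lama1, fell. Lama1 was not called with a mean of at least 5 FPKM or with the level trend removed. Of 10 pluripotency markers 7 fell, among them Nanog (by 1.17, limma adjusted p = 4.3e-08), against 4 with a mean of at least 5 FPKM and 3 with libraries divided by their totals. Over all genes the lower calls were, in the same order, 1006 of 10261, 225 of 6861 and 37 of 10261. Relative to the set medians 0 of 10 pluripotency markers and 0 of 9 germ cell markers passed, where 22 of all 10261 genes were lower. With a pseudocount of 1 in that comparison Nanog and Esrrb passed, where 24 of all 10261 were lower. Without the block or with 1 variance prior 0 of all 10261 genes passed on either scale. The part of any of these cells in the changes of the germline genes was not tested.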

How the data were processed

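RNA-seq was made from 4 libraries, a control and a Chd1-null library per set. Per the submitters' processing notes, TopHat2 2.0.10, TopHat, Cufflinks 2.2.0, Cuffdiff and build mm9 were used; which step each did, the annotation and the role of the spike-in are not stated there. The deposited values were taken as FPKM, and the ratio column deposited beside them equalled Chd1-null over control to a relative difference of at most 4.97e-06. In both tables the lowest value is 0.1 FPKM. Depth is unknown, so no counting interval is given.

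Genes with 1 unambiguous symbol in both tables (11728) were joined, and 10261 of them, whose mean reached 1 FPKM, were fitted as log2(FPKM + 0.1), a scale that understates changes of low genes. limma 3.58.1 in R 4.3.3 was used with set as a block, a variance trend and Benjamini-Hochberg adjustment over all tested genes, at 0.05, two-sided. Across genes, a set's libraries deviated together from the group means (r = 0.483), and each set was taken as a pair because it has a table of its own; no label says what else a set shares. With 1 residual degree of freedom and prior degrees of freedom of Inf, a gene's own spread does not enter its p-value, and p-values measure only the spread between these samples. An exact sign-flip test of 2 pairs cannot go below p = 0.5. Fits were tested on simulated data. Promoters came from RefSeq (GRCm38.p6).

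The genes, lists and tests were chosen with earlier results of these data known. Named genes were Chd1, all members, per list the 3 largest changes of like sign in both sets and the highest gene, and the 3 profiles nearest to the highest member, of which 1 is not reported here. Dnmt1, Dnmt3a, Dnmt3l, Hells, Uhrf1, Mga, Max, E2f6, Pcgf6, Hdac1, Ehmt2, Ifitm3 and Tex19.2 were named outside that rule, after their values were seen. Alternatives covered pseudocount, filter, block, variance prior, scaling, each set alone and, added after seeing the data, removal of the level trend.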

Additional observations from a re-analysis of the deposited data

How the results depend on the processing

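The number of all genes called on the deposited scale was 1013 (1006 lower, 7 higher). It was 227 (225 and 2) with a mean of at least 5 FPKM, 532 (529 and 3) with the level trend removed, a choice made after seeing the data, 87 (37 and 50) with libraries divided by their totals, and 0 without the block or with 1 common variance prior. At an unadjusted p under 0.05, limma had 1040 lower and 3 higher genes without the block and 1691 and 27 with the common prior. Relative to the set medians 37 genes passed, against 5 with a mean of at least 5 FPKM, 2 with the level trend removed, and 0 without the block or with the common prior. Of the germline genes 1 was called, and 0 with libraries divided by their totals, without the block or with the common prior; the cause was not tested. The adjusted p of Tex19.1 ran from 0.0014 to 0.461 over the alternatives on the deposited scale. The median log2 change of the tested germline genes (-0.42) was -0.032 with libraries divided by their totals, where Dazl (0.0403), Ddx4 (0.29) and Stk31 (0.0333) turned positive, and ranged from -0.54 to -0.24 with 1 set left out. Relative to the medians, Sycp3 (-0.026) turned to 0.0013 with a pseudocount of 1, 0.0061 without the block and 0.0801 with the level trend removed. With a set left out there is no test. The lack of counts limits what can be said of genes under 1 FPKM.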

Other observations

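Of the 3 lists of related germline genes, 13 genes were listed in set 2 alone and entered no comparison; 8 had a lower and 5 a higher value in the Chd1-null library. Piwil4, the Argonaute protein of nuclear piRNA silencing, stood at 3.17 FPKM in the control and at 0.823 in the Chd1-null library. Syce3, of the synaptonemal complex, stood at 5.50 and 0.189 FPKM, and Stra8, a switch gene for meiosis, at 2.46 and 0.789. Henmt1, which methylates the ends of piRNAs, was listed in set 1 alone, at 0.898 in the control and 0.158 in the Chd1-null library. The 5 higher in set 2 were Figla, at 0.265 and 0.841 FPKM, Prdm9, at 0.252 and 0.426, Msh5, Sycp2 and Piwil1, all under 1 FPKM in both libraries. In set 1 alone 2 genes were listed, Henmt1 and Tex12, both lower. These genes were picked after their values were seen, and each rests on 1 pair of libraries.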
